A study of Mus musculus with 8 samples.

Results

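Transcripts of 8 hepatoblast transcription factors were measured by RNAseq in S0 cells of the mouse fetal liver. The genes were taken by name, with earlier results of these data known, and they are 8 of the 52636 genes in the count table. They are the forkhead factors Foxa1, Foxa2 and Foxa3, the nuclear receptors Hnf4a and Nr1h4, the homeobox factors Prox1 and Onecut1, and the T-box factor Tbx3. S0 cells were sorted from midgestation (E12.5) livers as lineage-negative cells without CD71 and Ter119 on their surface, and the labels call them precursors of erythroid cells. There were 4 wild-type (WT) libraries and 4 libraries of the Vps13a/Vps13c double knockout (DKO), all of mice kept on the C57BL/6J background. DKO embryos came from intercrosses of mice lacking Vps13c and heterozygous for Vps13a. Every embryo of that cross lacks Vps13c, so WT embryos cannot be littermates of DKO embryos. Litter therefore runs with genotype and cannot be told apart from it. The Vps13a null allele was made in the germline with FLP and then with β-actin-Cre, so neither gene was deleted in the liver alone. Vps13a and Vps13c encode proteins that move lipids between membranes. The sources used here do not say whether each library came from a single embryo, so the tests measure the spread between these libraries.

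Hepatoblasts are the epithelial progenitors of the fetal liver, which give rise to hepatocytes and to the cells of the bile ducts, and at midgestation they lie among the blood-forming cells of the same organ. Their identity is held by a network of transcription factors that bind each other's regulatory regions. Forkhead factors open chromatin at liver genes, Hnf4a drives many hepatocyte genes, and homeobox and T-box factors act in the growth, migration and fate choice of the progenitors. The antibodies of the sort name no hepatoblast surface protein, so the sort neither selected nor removed these cells by such a protein. Hepatoblast transcripts were abundant. Afp, the fetal serum protein made by hepatoblasts, had 249219 to 350358 normalized counts per WT library and 96775 to 342898 per DKO library. A normalized count is a gene's count divided by the effective size of its library and multiplied by the mean effective size.

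Stretches just upstream of an annotated transcript start are shown for 4 of the genes, which frame the results. Hnf4a is the central member and Foxa1 stands for the forkhead factors. Onecut1 is the only member whose groups did not overlap, and Nr1h4 is the least abundant. The stretches are RefSeq promoter windows of GRCm38.p6, the patch release of the build of the count table. They are written 5′ to 3′ on the strand of the gene and without bases in exons of that gene. The Onecut1 window ends where the gene begins. The Hnf4a, Foxa1 and Nr1h4 windows lie inside the annotated bounds of their genes, so they are not the sequence before the gene. Capitals mark matches on either strand to 5 short motifs, the forkhead TGTTTAC, the HNF1 core GTTAAT, the ONECUT core ATTGAT, the nuclear receptor core AGGTCA and the GATA motif AGATAA. Hnf4a has an upstream and a downstream promoter, and its downstream one is shown (chr2:163546943-163547154, plus strand), followed by Foxa1 (chr12:57546122-57546361, minus strand), Onecut1 (chr9:74861671-74861920, plus strand) and Nr1h4 (chr10:89506659-89506908, minus strand).
Hnf4a: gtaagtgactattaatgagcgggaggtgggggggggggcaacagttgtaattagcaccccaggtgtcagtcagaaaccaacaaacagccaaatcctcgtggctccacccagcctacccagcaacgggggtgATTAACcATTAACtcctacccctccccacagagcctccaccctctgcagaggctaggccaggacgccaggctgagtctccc
Foxa1: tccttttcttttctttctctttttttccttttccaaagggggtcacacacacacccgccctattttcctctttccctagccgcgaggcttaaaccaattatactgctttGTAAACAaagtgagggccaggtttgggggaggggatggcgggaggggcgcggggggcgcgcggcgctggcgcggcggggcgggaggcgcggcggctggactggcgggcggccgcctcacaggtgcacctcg
Onecut1: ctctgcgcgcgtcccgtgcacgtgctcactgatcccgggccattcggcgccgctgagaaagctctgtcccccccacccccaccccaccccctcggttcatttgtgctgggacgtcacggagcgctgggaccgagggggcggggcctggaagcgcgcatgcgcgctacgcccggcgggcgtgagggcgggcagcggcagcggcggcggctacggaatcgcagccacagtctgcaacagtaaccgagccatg
Nr1h4: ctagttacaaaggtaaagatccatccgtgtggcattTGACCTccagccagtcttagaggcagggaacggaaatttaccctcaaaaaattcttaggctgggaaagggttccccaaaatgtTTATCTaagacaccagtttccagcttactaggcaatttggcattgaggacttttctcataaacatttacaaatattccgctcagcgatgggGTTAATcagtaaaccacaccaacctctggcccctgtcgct
The Hnf4a window held the HNF1 core side by side in reverse complement, and the Foxa1 window held the forkhead motif in reverse complement. No motif was found in the Onecut1 window. The Nr1h4 window held the nuclear receptor, GATA and HNF1 motifs. RefSeq windows existed for 7 of the 8 members, and 5 of their 11 windows held no match. Over all 32851 promoter windows of 250 bases, 3.17% held the forkhead motif, 6.43% the HNF1 core, 6.72% the ONECUT core, 14.0% the nuclear receptor core and 9.99% the GATA motif. A match is a run of letters and was not tested as a binding site.

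The libraries held 36981439 to 50886469 counts each. Vps13a ranged from 1825 to 2109 normalized counts in WT and from 607 to 1039 in DKO libraries, with a log2 fold change of -1.29 (SE 0.167) and an adjusted p of 0.00247 in edgeR's quasi-likelihood test. Vps13c did not pass the same test, with a log2 fold change of 0.49 (SE 0.243) and an adjusted p of 0.182. The sources used here do not say which part of Vps13c its null allele lacks, so a count over the whole gene does not check that deletion. DKO replicate 3 stood apart from the other DKO libraries in its sex transcripts. Ddx3y, a Y-linked gene, was at 2911 to 3354 normalized counts in WT, 2516 in DKO replicate 3 and at most 41.0 in the other 3 DKO libraries. Xist, the transcript of the inactive X chromosome, was at most 30.1 in WT and 62.3 in DKO replicate 3, against 18029 to 27043 in the other 3. Embryo sex therefore runs largely with genotype and cannot be told apart from it with these libraries. The fold change of each member is also given without DKO replicate 3. Without that library the sex transcripts split the libraries exactly by genotype. Such values therefore cannot separate genotype from sex either.

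All 8 members were detected and passed the filter on low counts, and none was called higher or lower in DKO cells. Calls required a log2 fold change outside -1 to 1 together with an adjusted p under 0.05. By these rules 6.19% of the 17378 genes tested were called higher and 2.43% lower, and with the adjusted p alone 21.6% passed, against 0 of the 8 members. The unadjusted p was under 0.05 for 2 members, Onecut1 (0.0337) and Tbx3 (0.0291), and DESeq2 also called none. The median log2 fold change of the members was -0.03, with a range of -1.61 to 0.78, beside a median of 0.03 over all genes tested. The members took 0.0143 to 0.0202% of the counts in WT libraries and 0.00846 to 0.0226% in DKO libraries. In bulk RNA, fewer hepatoblasts in the sort and less of a transcript in each hepatoblast cannot be told apart.

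**Figure D1:**
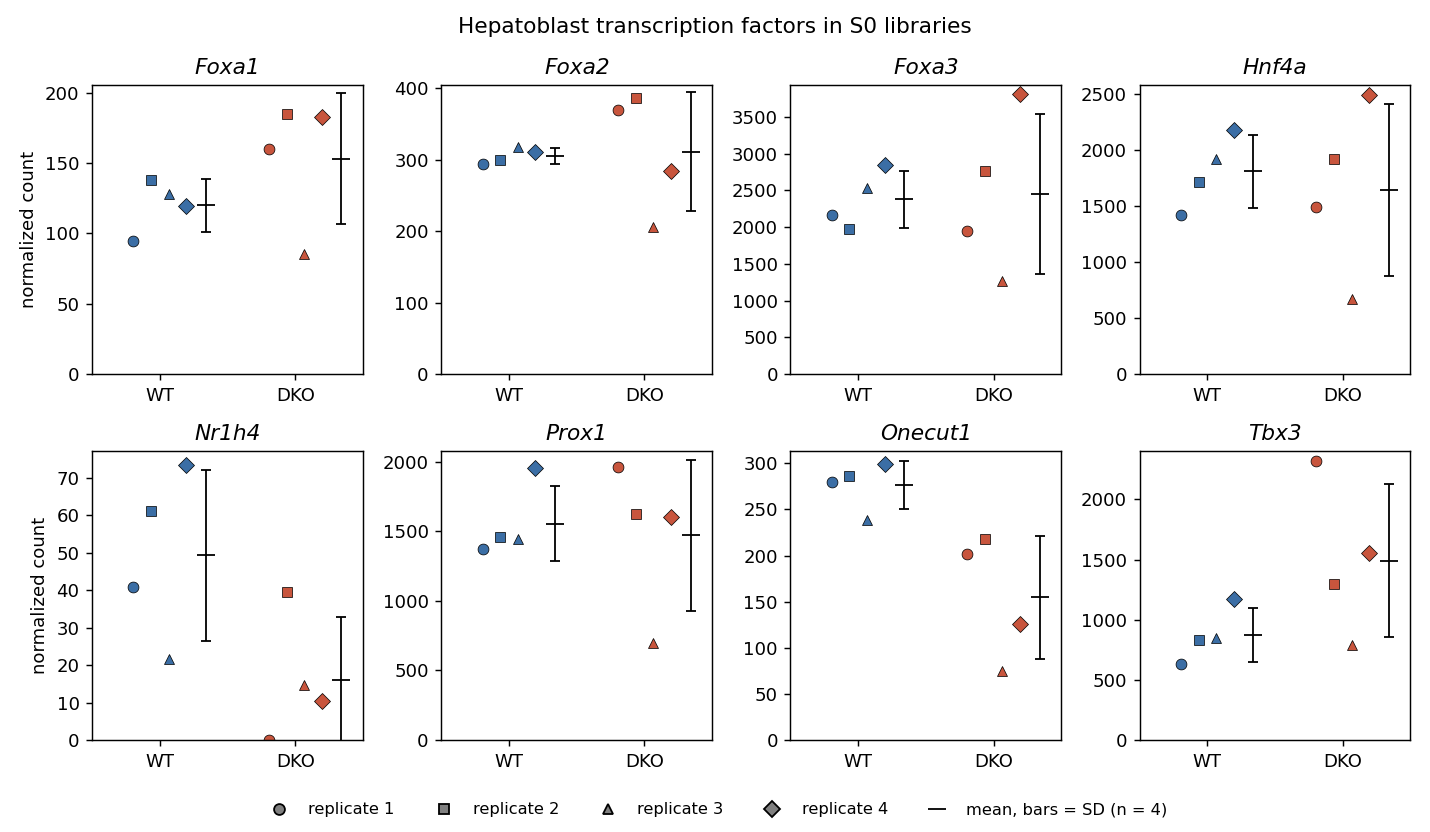
Normalized counts of the 8 members, each on its own linear axis from 0, with one point per library for the 4 WT and the 4 DKO libraries and a mark with bars for the group mean and SD. Onecut1 is the only member whose DKO points all lie below its WT points, and DKO replicate 3 is the lowest of the 8 libraries for Foxa1, Foxa2, Foxa3, Hnf4a, Prox1 and Onecut1.

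The 3 forkhead factors bind the same kind of site and act as pioneer factors in endoderm, and none of them passed the test between genotypes. Foxa3, the most abundant of them, had normalized counts of 2171, 1972, 2525 and 2842 in WT and 1952, 2768, 1273 and 3807 in DKO libraries. The DKO values reached below and above all WT values. Its mean was 2378 ± 385 (SD, n = 4) in WT and 2450 ± 1092 in DKO, and its log2 fold change was 0.04 (SE 0.287, adjusted p = 0.932 in edgeR's quasi-likelihood test).

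Foxa2, which is needed early for the endoderm itself, had 293, 299.5, 318 and 311 normalized counts in WT libraries, against 369.9, 386, 205 and 284 in DKO libraries. The WT values were close together, and DKO replicates 1 and 2 lay above them while replicates 3 and 4 lay below. The log2 fold change was 0.03 (SE 0.233, adjusted p = 0.949 by edgeR), with a 95% interval of 0.709 to 1.46 for the fold.

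Foxa1, which acts with Foxa2 in the onset of liver development, was the least abundant of the forkhead factors. Its normalized counts were 94.3, 138, 128 and 119.8 in WT and 159.7, 185, 85.5 and 183 in DKO libraries. Replicates 1, 2 and 4 of the DKO lay above every WT library and replicate 3 below every one. The log2 fold change of 0.35 (SE 0.315) had an adjusted p of 0.460 by edgeR. Without DKO replicate 3 it was 0.56, that of Foxa2 0.19 and that of Foxa3 0.26, and none passed the threshold.

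Hnf4a, the nuclear receptor at the centre of the hepatocyte program, had 1418, 1716, 1922 and 2181 normalized counts in WT libraries, against 1489, 1920, 674 and 2490 in DKO libraries. Apart from the low replicate 3, the DKO values spread over and slightly past the WT range. Its mean was 1809 ± 323 (SD, n = 4) in WT and 1643 ± 765 in DKO, with a log2 fold change of -0.14 (SE 0.326, adjusted p = 0.799 by edgeR). The 95% interval of the fold, 0.547 to 1.51, takes in both a lower and a higher level. Without DKO replicate 3 the log2 fold change was 0.13.

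Nr1h4 encodes FXR, the bile acid receptor, and it was the least abundant member. Its normalized counts were 40.8, 61.1, 21.7 and 73.4 in WT and 0, 39.5, 14.7 and 10.5 in DKO libraries. DKO replicate 1 had no count at all, which allows up to 3 counts or 3.15 normalized counts by counting error alone. The groups overlapped through DKO replicate 2 and WT replicate 3. The mean was 49.3 ± 22.8 (SD, n = 4) in WT and 16.2 ± 16.7 in DKO. The log2 fold change of -1.61 was the largest in size among the members, but its SE of 0.958 gave a 95% interval of -3.75 to 0.54 and an adjusted p of 0.261 by edgeR. Without DKO replicate 3 the log2 fold change was -1.55 (adjusted p = 0.347 by edgeR), and without DKO replicate 2, the highest of the group, it was -2.56 (adjusted p = 0.114). The spread between libraries leaves the size of a difference in Nr1h4 undetermined.

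Onecut1 encodes HNF6, a homeobox factor of hepatoblasts and of the bile duct lineage. Its normalized counts were 279.6, 287, 239 and 299 in WT and 202, 217, 74.5 and 125 in DKO libraries. Every DKO library lay below every WT library, as 1 of the 8 members, where 28.1% of all genes tested had groups that did not overlap in either direction. The mean was 276 ± 26.0 (SD, n = 4) in WT and 155 ± 66.9 in DKO. The log2 fold change was -0.83 (SE 0.337), with a 95% interval of -1.59 to -0.08 and an adjusted p of 0.106 by edgeR. The exact two-sided permutation test of 4 against 4 gave p = 0.0286, the smallest it can give over 70 arrangements. Without DKO replicate 3 the log2 fold change was -0.60. Exons of Onecut1 overlap those of Gm20649, a noncoding gene on the same strand with 0 to 103 counts per library, and with its counts added the log2 fold change was -0.66 (adjusted p = 0.222 by edgeR).

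Prox1, a homeobox factor that hepatoblasts need to spread through the liver bud, had 1370, 1460, 1443 and 1952 normalized counts in WT libraries, against 1963, 1624, 699.6 and 1601 in DKO libraries. The groups overlapped widely. Its log2 fold change was -0.08 (SE 0.272, adjusted p = 0.865 by edgeR), with a 95% interval of 0.620 to 1.44 for the fold, and 0.16 without DKO replicate 3. Prox1 also marks the endothelium of lymphatic vessels. Its opposite-strand neighbour Prox1os shares exon positions with it, so reads of the pair may be mixed where counting ignored strand, and with its counts added the log2 fold change was -0.11.

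Tbx3, a T-box repressor that keeps hepatoblasts dividing and is also expressed in embryonic mesenchyme, had the highest fold change of the members. Its normalized counts were 629, 828, 849 and 1171 in WT and 2318, 1295, 794 and 1554 in DKO libraries. Replicates 1, 2 and 4 of the DKO lay above every WT library, while replicate 3 lay within the WT range. The mean was 869 ± 224 (SD, n = 4) in WT and 1490 ± 636 in DKO, and the log2 fold change of 0.78 (SE 0.303) had an adjusted p of 0.0965 by edgeR. Without DKO replicate 3 the log2 fold change was 0.99 and the adjusted p 0.0222, and without both DKO replicates 1 and 3, an alternative chosen after seeing the data, they were 0.72 and 0.0450. Without DKO replicate 1 alone, which had the highest count, they were 0.49 and 0.205. Tbx3 overlaps the antisense gene Tbx3os1 in exon positions, and adding the counts of that gene gave a log2 fold change of 0.79.

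**Figure D2:**
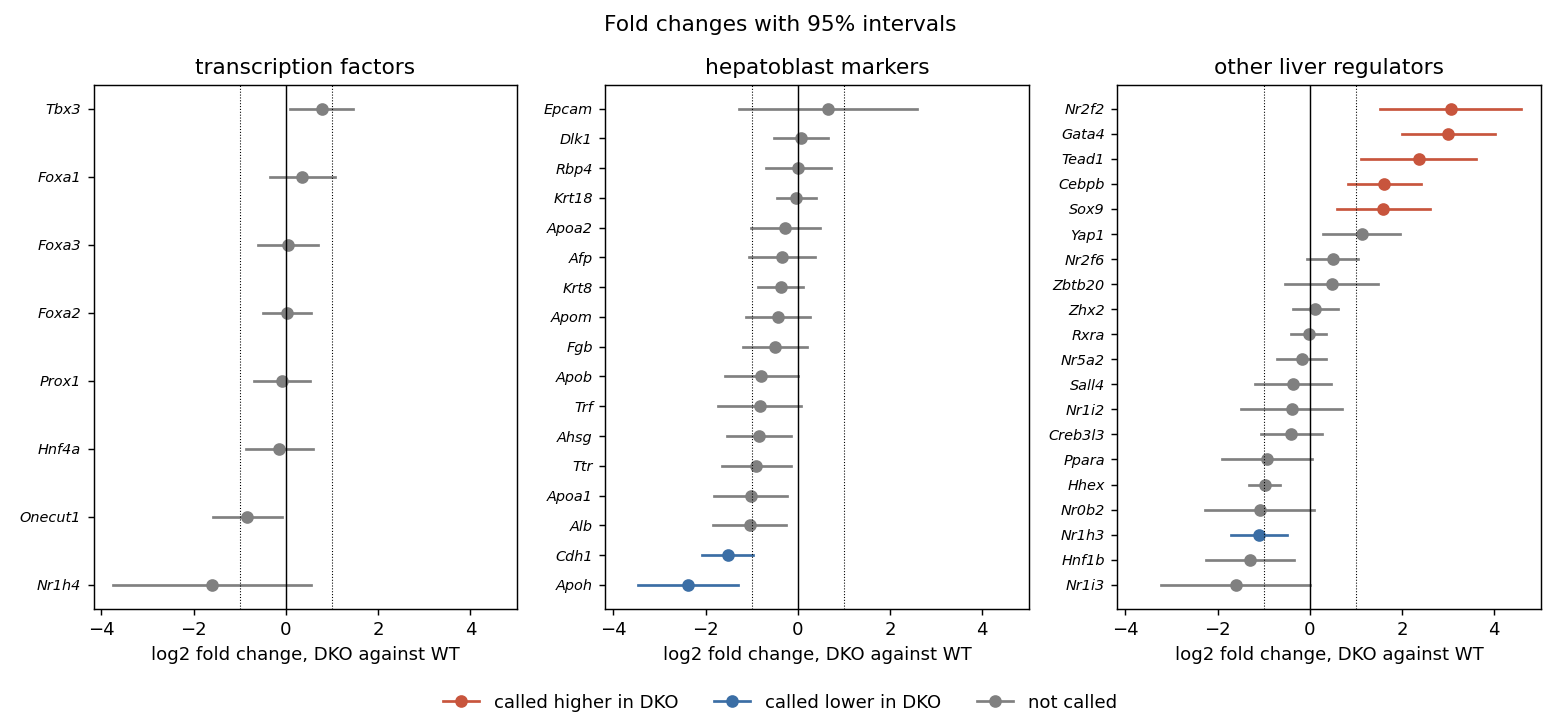
Log2 fold change of DKO against WT for the 8 members, the 17 hepatoblast markers and the 20 other liver regulators, with points at the edgeR estimate, bars for the 95% interval, dotted lines at 1 and -1, and colour for called genes. The intervals of Onecut1 and Tbx3 exclude 0 before adjustment over all genes, and the interval of Nr1h4 is the widest, from -3.75 to 0.54.

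DKO replicate 3 was the lowest of the 8 libraries for 6 of the 8 members, the exceptions being Nr1h4 and Tbx3. Its level was 0.270 times the WT mean for Onecut1, 0.373 times for Hnf4a, 0.450 times for Prox1 and 0.535 times for Foxa3. Foxa2 and Foxa1 stood at 0.671 and 0.713 times, and Tbx3 at 0.913 times. The same library had the lowest summed level of the 17 hepatoblast markers, 259531 normalized counts against 617710 to 961110 in the other DKO libraries. It is also the only DKO library with sex transcripts like those of the WT libraries, and the part of either in its low values was not tested.

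Levels of different genes were compared per kilobase of exon. In WT cells the order from high to low was Foxa3 at 1167 ± 189 normalized counts per kilobase (SD, n = 4), Hnf4a at 375 ± 66.9, Prox1 at 186 ± 31.8 and Tbx3 at 131 ± 33.9. Foxa2 followed at 129 ± 4.71, Onecut1 at 67.1 ± 6.33, Foxa1 at 36.0 ± 5.58 and Nr1h4 at 21.4 ± 9.88. Ranges overlapped between Prox1 and Tbx3, between Tbx3 and Foxa2 and between Foxa1 and Nr1h4, so the order within these neighbours does not go beyond their spread. In DKO cells Foxa3 and Hnf4a again led, at 1203 ± 536 and 340.4 ± 158, followed by Tbx3 at 225 ± 96.0, Prox1 at 175 ± 64.5 and Foxa2 at 131 ± 35.3. Foxa1 at 46.0 ± 14.0 then stood before Onecut1 at 37.6 ± 16.3 and Nr1h4 at 7.01 ± 7.27. The changed places of Tbx3 with Prox1 and of Foxa1 with Onecut1 fall between DKO neighbours whose ranges overlapped. DKO ranges also overlapped between Hnf4a and Tbx3 and between Prox1 and Foxa2, so their order does not go beyond their spread either.

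Other liver regulators, a list of 20 transcription factors and cofactors other than the members, were all tested, and 5 were called higher and 1 lower in DKO cells. Nr2f2, an orphan receptor of mesenchyme and venous endothelium, rose by a log2 fold change of 3.06 (SE 0.683, adjusted p = 0.0142 by edgeR) and Gata4, a factor of early endoderm and of mesenchyme, by 3.01 (SE 0.447, adjusted p = 0.00358). Tead1, the DNA-binding partner of Yap1, rose by 2.36, Cebpb by 1.62 and Sox9 by 1.60. DKO replicate 1 stood far above the other DKO libraries for Nr2f2, at 7263 against 1038, 1157 and 992 normalized counts. The same held for Tead1, at 1376 against 320, 215 and 331, so the size of both changes rests largely on that library. The Sox9 groups overlapped, at 126.5 to 497 in WT and 453 to 1139 in DKO libraries (exact permutation p = 0.0571), and replicate 1 was again the highest. The median of the list was -0.10. Nr1h3, the oxysterol receptor LXRα, fell by 1.10 on the log2 scale (adjusted p = 0.0209 by edgeR). Hhex, which hepatoblasts and blood progenitors both use, had an adjusted p of 0.00416 and a log2 fold change of -0.98, just inside the fold threshold. Its normalized counts were 2528 to 3287 in WT and 1205 to 1941 in DKO libraries, with no overlap.

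Of 17 hepatoblast markers, none was called higher and 2 lower, Apoh with a log2 fold change of -2.38 (adjusted p = 0.0106 by edgeR) and the epithelial cadherin Cdh1 with -1.52 (adjusted p = 0.00498). The median of the list was -0.49 and 14 of its 17 values were below 0, beside a median of 0.03 for all genes. The mean log2 level of the markers was 13.89 ± 0.256 (SD, n = 4) in WT and 13.14 ± 0.754 in DKO, a difference of -0.75 with p = 0.0857 in the exact permutation test. Of 22 known targets of the members, 16 were tested, of which 2 were called higher and 2 lower. Slc10a1, the bile acid uptake carrier, rose by 2.18 on the log2 scale and Igfbp1 by 1.96, with adjusted p-values of 0.0118 and 0.00679 by edgeR. Serpinc1, which encodes antithrombin, fell by 1.01 on the log2 scale, and the coagulation factor gene F9 was also called lower, at 32.5 to 97.9 normalized counts in WT and at 0, 4.65, 0 and 0 in DKO libraries. The median of the targets was -0.68, with 5 log2 fold changes above 0 and 11 below. Abcb11, the bile salt export pump controlled by Nr1h4, had 80.6 to 157 normalized counts in WT and 0 to 42.0 in DKO libraries. It was not called (adjusted p = 0.0625 by edgeR). Abcb4, another gene of the list, went the other way, at 713 to 933 in WT and 1001 to 1458 in DKO libraries. Its adjusted p was 0.0395 by edgeR, with a log2 fold change of 0.495, inside the fold threshold.

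Since the hepatoblast markers differed widely between libraries, each member was also expressed relative to the 17 hepatoblast markers of the same library, as its log2 level minus the mean log2 level of the markers. On this scale 6 of the 8 members were higher in every DKO library than in every WT library. The share of all genes tested that did so was 28.1%. The median difference over the members was 0.64, beside 0.74 over all genes tested. Tbx3 differed by 1.46, from -4.16 ± 0.266 (SD, n = 4) in WT to -2.70 ± 0.545 in DKO, and Foxa1 by 1.05, from -6.98 ± 0.298 to -5.93 ± 0.238. For Foxa2 the difference was 0.73, for Foxa3 0.69, for Prox1 0.58 and for Hnf4a 0.48, each with p = 0.0286 in the exact permutation test, the smallest possible. Leaving out 1 library at a time kept these 6 differences above 0, between 0.35 for Hnf4a and 1.68 for Tbx3. Without DKO replicate 3 they were 1.36 for Tbx3, 0.94 for Foxa1, 0.60 for Foxa3, 0.55 for Foxa2, 0.54 for Prox1 and 0.48 for Hnf4a.

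Onecut1 and Nr1h4 were the exceptions on that scale. Onecut1 differed by -0.20, from -5.78 ± 0.337 (SD, n = 4) to -5.98 ± 0.385, with p = 0.457 in the exact permutation test and overlapping groups. It was -0.26 without DKO replicate 3. Nr1h4 differed by -1.56 with p = 0.2 in the same exact test. That value was -0.44 without DKO replicate 1, the library at 0 counts, -2.19 without DKO replicate 3 and -0.89 with a pseudocount of 5 in place of 1. No gene of the 8 was lower in every DKO library, which 1.01% of all genes tested were. The edgeR log2 fold change of Onecut1 was -0.83, and the mean log2 level of the markers differed by -0.75. These are unlike measures, so the gap between them is not the -0.20 given above.

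**Figure D3:**
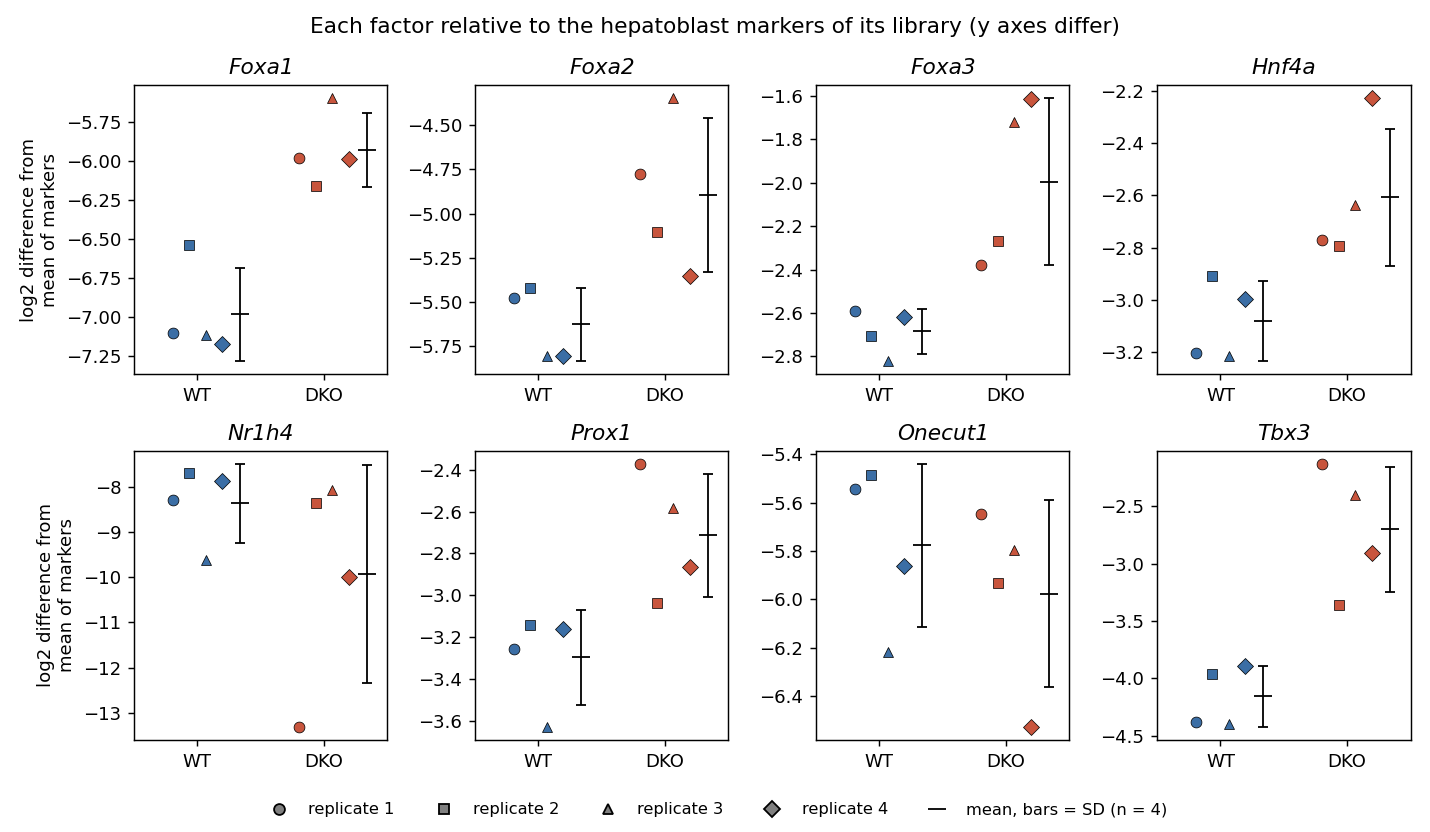
Log2 level of each member minus the mean log2 level of 17 hepatoblast markers in the same library, for the 4 WT and 4 DKO libraries, with a mark and bars for the mean and SD of each group. Foxa1, Foxa2, Foxa3, Hnf4a, Prox1 and Tbx3 stand higher in every DKO library, while Onecut1 and Nr1h4 overlap.

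Transcripts of other cells moved with genotype too. Of 10 stellate and mesenchymal markers 8 were called higher and none lower. Their median log2 fold change was 2.998, and the summed level was 4711 to 8164 normalized counts in WT libraries, against 15642 to 48430 in DKO libraries. The highest sum was in DKO replicate 1, the library with the highest Tbx3, and the part of these cells in the Tbx3 values was not tested. Of 5 mesothelial markers tested 4 were called higher, from 156 to 314 summed in WT to 857 to 2602 in DKO. Macrophage markers summed to 2410 to 3292 in WT and 586 to 1590 in DKO libraries, with Adgre1 called lower and 8 of 10 tested. Csf1r made up most of the WT sums, at 1932 to 2672 in WT and 62.0 to 1261 in DKO libraries. It was not called (adjusted p = 0.0961 by edgeR). Apart from Adgre1 and Csf1r, the tested macrophage markers overlapped between genotypes, so the sums do not describe the list as a whole. Endothelial and lymphatic markers, which bear on Prox1, summed to 2804 to 3787 in WT and 1765 to 2762 in DKO, with Pdpn called higher and Pecam1 lower among 10. Pecam1 was the largest part of the WT sums, at 1536 to 1896 in WT and 389 to 984.5 in DKO libraries. Apart from Pecam1 and Clec4g, the markers of this list overlapped between genotypes, Pdpn included. The part of these cells in the Prox1 values was not tested. Of 12 erythroid markers none was called by edgeR, 2 had an adjusted p under 0.05, their median was 0.05, and the sums of 62954 to 88579 in WT and 49223 to 107543 in DKO overlapped. Of 10 neural markers 6 were tested and Nefm was called higher, with sums of 155 to 348 in WT and 426 to 5845 in DKO, again highest in DKO replicate 1. Of 8 markers listed for gut and pancreas, organs whose endoderm also uses Foxa factors, only Barx1 was tested, a factor of stomach mesenchyme rather than of endoderm. It was called higher by edgeR, but its normalized counts of 1500, 58.1, 0 and 134 in DKO libraries rest mainly on replicate 1 and overlap the 0 to 18.4 of WT libraries (exact permutation p = 0.2). Of the untested genes of this list, Cdx2, Shh and Nkx2-1 were at 0 in every library. Pdx1 was at 0 to 46.9 in WT and 0 to 6.30 in DKO libraries. Ptf1a and Neurog3 were at 22.6 and 30.4 in WT replicate 3, which also had the highest Pdx1, and at 0 elsewhere. Sox2 was at 0 in every WT library and at 1.22 to 98.8 in DKO libraries, highest in replicate 1.

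**Figure D4:**
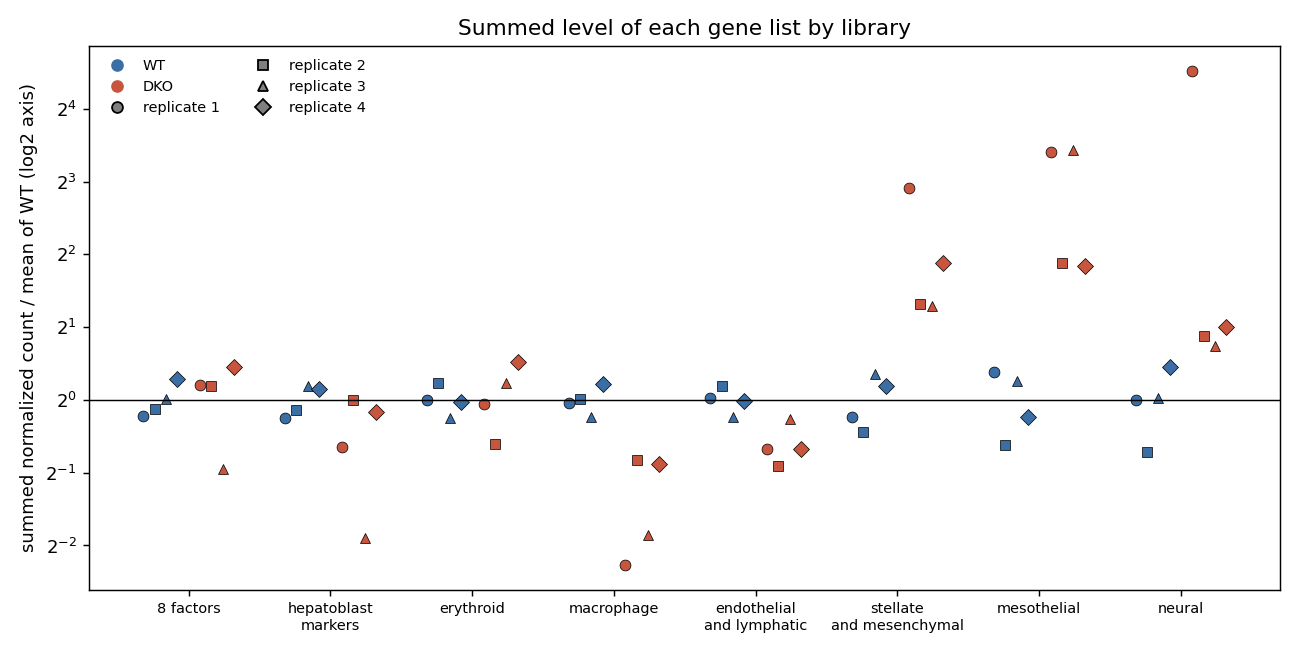
Summed normalized counts of the 8 members and of 7 marker lists, each divided by its WT mean, on a log2 axis with a line at 1 and one point per library for WT and DKO. Before this division the sums of the members overlap between genotypes, from 6296 to 8951 in WT and 3820 to 10055 in DKO, while the stellate and mesenchymal sums do not.

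The genes whose levels ran closest to each member over the 8 libraries were found by Pearson's r of log2 normalized counts, given as a description over libraries that share genotype and marker content. For Hnf4a they were Lsr, a lipoprotein receptor gene (r = 0.995), Gstt1 (0.993) and Slc35d2 (0.993), and r for Lsr was 0.996 after the mean of each genotype was subtracted. Foxa3 ran closest to Reep6 (0.984), Foxa2 to St6gal1 (0.975), Foxa1 to Tk2 (0.973) and Prox1 to Tspan7 (0.981). Onecut1 ran with the interferon-related factor Irf1 (0.991) and the serum amyloid gene Saa4 (0.986). Tbx3 ran with Cald1, a gene of contractile and mesenchymal cells (0.988), and with Csf1 (0.980). Nr1h4 ran with Csf2rb (0.989), a cytokine receptor gene of blood cells, and with Plekhg6 (0.988). Among the members themselves Foxa3 and Hnf4a were the closest pair (0.936), followed by Foxa2 with Prox1 (0.859) and Hnf4a with Prox1 (0.845). Nr1h4 and Tbx3 were the farthest apart (-0.706, and -0.524 after the genotype means were subtracted). Both this value and the matches of Nr1h4 include DKO replicate 1, where Nr1h4 had 0 counts and Tbx3 was highest. No r was computed without that library.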

How the data were processed

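S0 cells of E12.5 fetal livers were profiled by polyA RNAseq with template-switching cDNA (4 WT and 4 DKO libraries, grouped by the labels). The authors trimmed reads with fastp 0.21.0, aligned them to mm10 with HISAT2 2.2.1, removed alignments of low mapping quality, and derived gene counts with StringTie 1.3.3b and its prepDE script, which turns coverage of annotated transcripts into whole numbers. The deposited values are these raw counts. The strand setting is not given in the sources used here, so genes that overlap on opposite strands may share reads.

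Identifiers were matched to symbols without their version (52403 of 52636; GENCODE M21, the same build). Genes were filtered with filterByExpr and scaled by TMM, and DKO was compared with WT by the quasi-likelihood test of edgeR 4.0.16 with Benjamini-Hochberg adjustment over all 17378 genes tested. The study used DESeq2, which served here as an alternative (version 1.42.0). Single values were compared by exact two-sided permutation tests, for which a log2 level is log2(normalized count + 1). All 8 members, the called members of each other list and the 3 genes closest to each member in pattern were eligible for naming. Afp, Hhex, Abcb11, Abcb4, Ddx3y and Xist were named after their values were seen. So were Csf1r, Clec4g and the untested genes of the gut and pancreas list. The members and lists were chosen with earlier results of these data known. The libraries hold 36981439 to 50886469 counts, and the limit given for a count of 0 covers counting error only. The scripts were tested on simulated data. Alternatives were another tool, scaling, filter and call rule, a replicate block, and leaving out libraries.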

Additional observations from a re-analysis of the deposited data

Results flagged for a closer look

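Prox1 in the WT group had 1 library far from the others. WT replicate 4 had 1952 normalized counts, and its gap to the next library took up 0.846 of the range of the 4 WT libraries, above Dixon's critical value for 4 samples. It was the only one of 16 groups of 4 examined (8 genes in 2 genotypes), and chance alone gives such a gap in about 1 group in 20.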

How the results depend on the processing

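No member was called in either direction under any alternative, and no member with an adjusted p under 0.05 was found except Tbx3 without DKO replicate 3 (0.0222) and without DKO replicates 1 and 3 (0.0450). Log2 fold changes over the alternatives ran from 0.49 to 0.99 for Tbx3 and from -1.05 to -0.60 for Onecut1, whose lowest adjusted p was 0.0513. Hnf4a (-0.40 to 0.29), Foxa3 (-0.24 to 0.47), Foxa2 (-0.10 to 0.19) and Prox1 (-0.24 to 0.16) had either sign. Nr1h4 ran from -2.56 (without DKO replicate 2) to -0.97 (without DKO replicates 1 and 3), and was removed by requiring 10 counts in each library.

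Counts for the lists and for all genes did depend on the processing, and the cause was not tested. DESeq2 called 1653 genes higher, 2 liver regulators lower and 4 hepatoblast markers lower. Without the fold threshold 1867 genes were higher and 1878 lower, with 2 liver regulators lower. Liver regulators called lower were 0 with upper-quartile scaling, and 2 without the low-count filter or when each library needed 10 counts. Leaving out 1 library gave 566 to 1148 genes higher (566 without WT replicate 1, 650 without WT replicate 2, 633 without WT replicate 4) and 243 to 521 lower (258, 260 and 243 without the same libraries). It gave 2 to 5 liver regulators higher (2 without WT replicates 1 or 4, 3 without WT replicate 2) and 0 to 2 lower (0 without WT replicates 2 or 4 or DKO replicates 3 or 4, and 2 without WT replicates 1 or 3 or DKO replicate 2). Hepatoblast markers lower were 2 to 6 (6 without DKO replicate 2). The median log2 fold change of all genes was 0.03, and 0.14 with upper-quartile scaling or DESeq2.

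The replicate numbers of WT and DKO libraries did not pair them: same-numbered deviations correlated at -0.10 to 0.05, and 1 of 8 libraries correlated best with its own number. With the replicate number as a block, 613 genes and 2 liver regulators were called higher, and the log2 fold changes were 0.70 for Tbx3, -0.94 for Onecut1, -0.25 for Hnf4a, 0.31 for Foxa1, -0.01 for Foxa2, -0.05 for Foxa3, -2.13 for Nr1h4 and -0.16 for Prox1, none called.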
